A study of Mus musculus with 6 samples.

Results

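The genes described here are 10 early response genes of the Sol muscle: the nuclear receptor genes Nr4a1 and Nr4a3, the kinase gene Sik1, the zinc finger factor genes Klf2, Klf4 and Klf6, and Btg2, Trib1, Dusp1 and Ier2. They were picked from the 24411 genes of the count table because several of them were lower in LSD1-mKO than in WT mice. The difference between the genotypes is therefore given for them as a description, without a test. RNA-seq of Sol after voluntary wheel running (VWR) covered 3 WT and 3 LSD1-mKO mice, with 1 library per mouse. WT mice carried the floxed Lsd1 allele without CreERT2. LSD1-mKO mice were Lsd1 flox/flox with 1 copy of the ACTA1-CreERT2 transgene, in which the human ACTA1 promoter drives CreERT2 in differentiating and differentiated muscle cells, so that other cells of the muscle are not targeted. Kdm1a was not measured by cell type. All mice were C57BL/6 males that had the wheel for 38 days from 8 weeks of age. These 38 days comprised 3 days of familiarization, 5 days of tamoxifen at 75 mg/kg and 30 days of recorded running. They were kept off the wheel and fasted before the muscle was taken, and no sedentary mice were sequenced, so the response of these genes to running itself could not be measured.

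Early response genes, also called immediate early genes, are transcribed within minutes of a stimulus from factors that are already present in the cell, and their mRNAs are short-lived. In skeletal muscle, contraction raises cyclic AMP, calcium and MAP kinase signals, and the cyclic AMP response element (CRE) binding protein CREB is one of the factors that carry such signals to genes of the NR4A, SIK and KLF families. Several of these genes are also active in vessel and immune cells, where shear stress and inflammation induce them. LSD1, encoded by Kdm1a, is a histone demethylase that removes methyl groups from lysine 4 and lysine 9 of histone H3.

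The labels and the tissue were checked first. Kdm1a measured 40.5, 38.2 and 33.6 counts per 1000000 after TMM normalization (CPM) in the WT mice, in the order of their replicate numbers 1 to 3, and 14.6, 16.6 and 16.6 in the LSD1-mKO mice, so every LSD1-mKO library was below every WT library. The slow myosin gene Myh7 was at 11233 to 15151 CPM and the fast oxidative myosin gene Myh2 at 14850 to 26503, whereas Myh4, the myosin gene of the fast glycolytic fibers, was at 15.0 to 40.6. The libraries held 8940206 to 13798059 estimated counts. Of the 24411 genes, 12828 passed the filter on low counts, and 10 of the 10 early genes were among them. Over these 12828 genes edgeR called 2 (0.0156%) at an adjusted p under 0.05, 1 of them (0.0078%) as lower in LSD1-mKO. The gene called lower was the deleted gene Kdm1a itself, with a log2 fold change of -1.23 and an adjusted p of 0.0160 from edgeR. Poly(A) RNA of the whole muscle was read, so that fewer cells of a type and less RNA per cell cannot be told apart. The p-values measure the spread between these mice only, and the intervals of single values cover counting error only, since PCR-amplified reads are not independent molecules.

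The fitted level was lower in LSD1-mKO for 10 of the 10 early genes, against 54.8% of all genes tested, and their median log2 fold change (LSD1-mKO over WT) was -0.50, against -0.02 over all genes tested. The 3 LSD1-mKO mice were wholly below the 3 WT mice for 5 genes, namely Sik1, Btg2, Klf4, Klf6 and Trib1. This holds for 6.1% of all genes tested. Nothing is read from these counts, because the genes were chosen on this contrast.

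**Figure D1:**
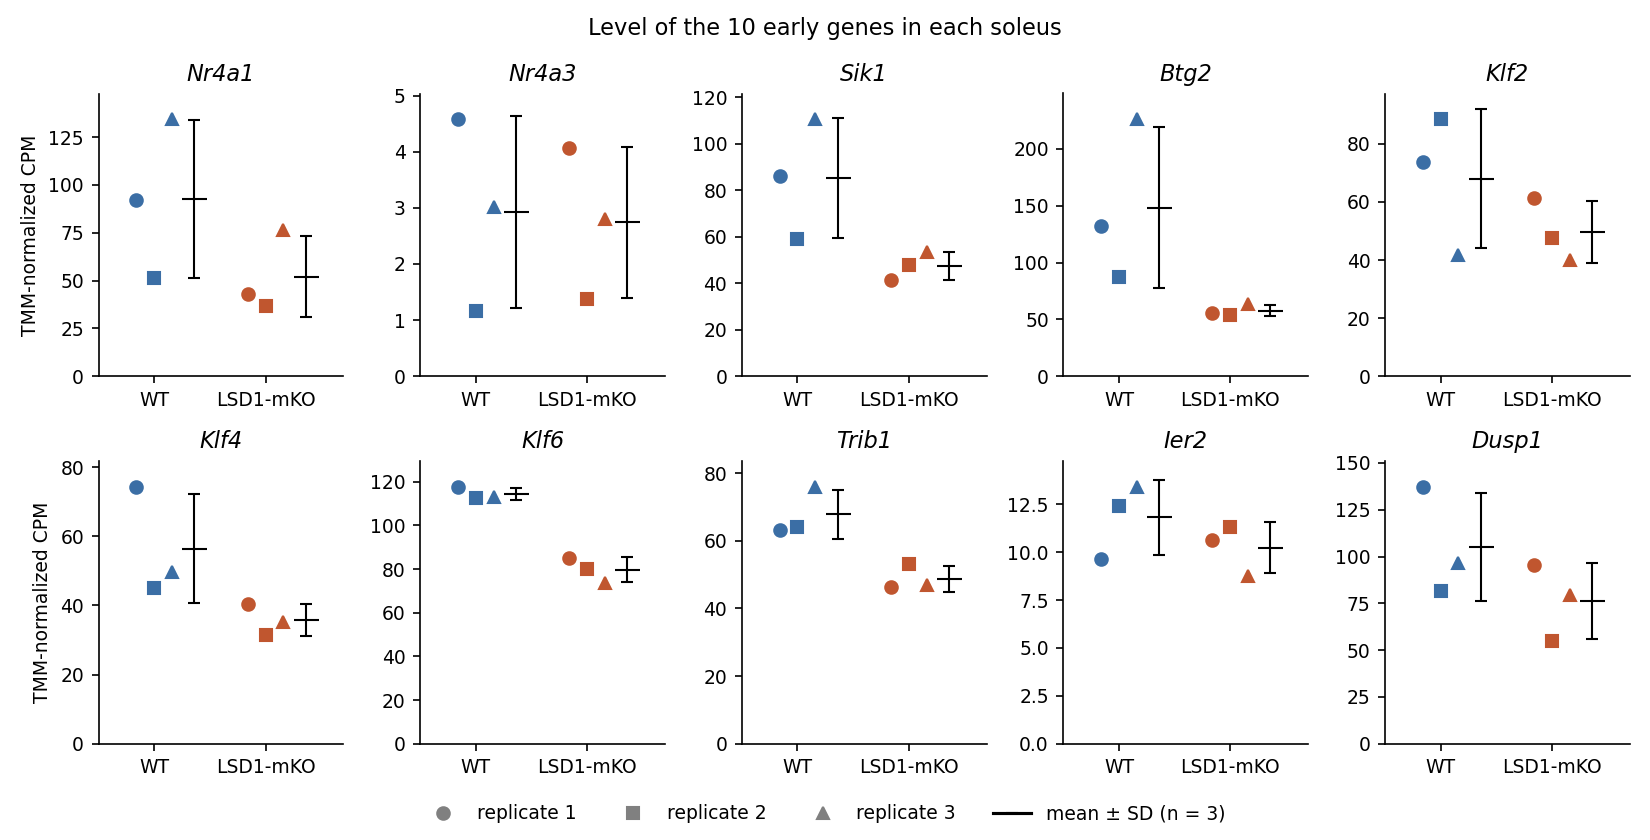
TMM-normalized CPM of the 10 early genes in each mouse, with 1 panel per gene, an axis from 0 in each panel, points for the 3 WT and 3 LSD1-mKO mice, and beside them the mean with an error bar of 1 SD. The LSD1-mKO points lie below all WT points for Sik1, Btg2, Klf4, Klf6 and Trib1 and among them for the other genes.

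The NR4A genes encode orphan nuclear receptors that bind DNA without a known hormone and that exercise and adrenergic signals induce in muscle. Nr4a1 (Nur77), on chromosome 15 of GRCm38 from 101254269 to 101274795, measured 92.2, 51.4 and 134.3 CPM in the WT mice and 43.1, 36.8 and 76.3 in the LSD1-mKO mice, again by replicate number, as in all lists of values that follow. The groups overlapped, because LSD1-mKO replicate 3 was above WT replicate 2. The means were 92.7 ± 41.5 CPM (SD, n = 3) and 52.0 ± 21.2 (SD, n = 3), and the log2 fold change of -0.84 (standard error, SE, 0.36) moved between -0.46 without WT replicate 3 and -1.21 without LSD1-mKO replicate 3.

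Nr4a3 (NOR-1), on chromosome 4 from 48045153 to 48086447, was the rarest of the 10, with 4.58, 1.17 and 3.02 CPM in WT and 4.07, 1.38 and 2.79 in LSD1-mKO. Both genotypes covered nearly the same range. WT replicate 2 held 13 counts of Nr4a3, for which an exact Poisson interval at 95% runs from 0.623 to 2.00 CPM, while WT replicate 1 held 38 counts, with an interval of 3.24 to 6.29 CPM. The log2 fold change was -0.06 (SE 0.52). It was 0.39 without WT replicate 1, 0.28 without LSD1-mKO replicate 2 and 0.02 with limma voom, so Nr4a3 had no steady direction.

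Nr4a2 (Nurr1), the remaining gene of the family, was not among the 10. WT mice averaged 2.25 ± 0.590 CPM (SD, n = 3) and LSD1-mKO mice 1.48 ± 0.856 (SD, n = 3), with overlapping groups and a difference of -0.60 on the log2 scale (SE 0.43, edgeR adjusted p = 0.814 over all genes tested). NR4A1 is known as a regulator of metabolic genes in muscle. Of 11 such genes for the use of sugar, for lipid synthesis and for uncoupling, among them the glycogen phosphorylase gene Pygm and the glucose transporter gene Slc2a4 (GLUT4), 0 had an unadjusted p under 0.05. Their median log2 fold change was -0.003, with -0.40 for Fbp2 at the lower end and 0.25 for Ucp2 at the upper end. Pygm measured 2113 CPM in WT and 2177 CPM in LSD1-mKO on average.

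Sik1 encodes salt-inducible kinase 1, which cyclic AMP induces and which in turn holds the CREB coactivators of the CRTC family out of the nucleus. It lies on chromosome 17 from 31844250 to 31855804. The WT mice had 86.0, 59.1 and 110.6 CPM and the LSD1-mKO mice 41.4, 48.0 and 53.3. All LSD1-mKO values were below the lowest WT value, and the LSD1-mKO mean of 47.5 ± 5.97 CPM (SD, n = 3) was 55.8% of the WT mean of 85.2 ± 25.7 (SD, n = 3). For Sik1 the log2 fold change was -0.84 (SE 0.21) and lay between -1.05 and -0.61 with 1 mouse left out.

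Of the relatives, Sik2 and Sik3 had log2 fold changes of 0.06 and -0.06. Crtc2, whose LSD1-mKO values of 19.6 to 22.4 CPM were all below the WT values of 23.2 to 28.0, had -0.22 (SE 0.11), while Crtc1 had -0.14 and Crtc3 -0.07. None of these 5 genes had an unadjusted p under 0.05 with edgeR. Among 11 genes of the cyclic AMP and CREB pathway, 6 were fitted lower and 5 higher, with a median of -0.04. Atf1 and Crem, a CREB relative each, had 0.23 and 0.26, and Prkar1a, which encodes the regulatory subunit of protein kinase A and is the most abundant of the list, had 0.11.

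Other genes known as CREB targets were also counted. Of 11 tested, 9 were fitted lower, against 54.8% of all genes tested, and the median was -0.34. At an unadjusted p under 0.05, 2 were lower, against 2.88% of all genes. This list was drawn up with earlier results of these data known. It also shares genes such as Per1, Atf3 and Nr4a2 with other lists used here, so its direction is not independent evidence. Irs2, which encodes an adaptor of the insulin receptor, measured 83.7, 27.5 and 42.2 CPM in WT and 24.1, 19.2 and 21.5 in LSD1-mKO, which differ by -1.23 on the log2 scale (SE 0.35, edgeR adjusted p = 0.578). The clock gene Per1 had -0.36 (SE 0.12, edgeR adjusted p = 0.665). Ppargc1a, the gene of the coactivator PGC-1α, stood on the other side with a fitted log2 fold change of 0.57 (SE 0.32) and groups that overlapped.

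The Krüppel-like factors Klf2, Klf4 and Klf6 bind GC-rich promoter elements. Klf2 and Klf4 are best known from endothelium, where blood flow induces them, and Klf6 from tissue injury and growth arrest. Klf6, on chromosome 13 from 5861482 to 5870394, was the steadiest of the 10 genes, with 117.8, 112.5 and 113.3 CPM in WT and 85.1, 80.2 and 73.9 in LSD1-mKO. The highest and the lowest WT mouse differed 1.05-fold, and all LSD1-mKO mice lay well below them. Klf6 had a log2 fold change of -0.52 (SE 0.084), which stayed between -0.57 and -0.47 with 1 mouse left out.

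Klf4, on chromosome 4 from 55527143 to 55532466, had 74.4, 45.1 and 49.8 CPM in WT and 40.5, 31.5 and 35.3 in LSD1-mKO. Here too the groups did not overlap, but WT replicate 1 stood above the other mice. Its log2 fold change of -0.65 (SE 0.19) was -0.40 without WT replicate 1.

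Klf2, on chromosome 8 from 72319033 to 72321656, had 73.9, 88.5 and 41.7 CPM in WT and 61.3, 47.6 and 40.0 in LSD1-mKO, so that WT replicate 3, the highest mouse for 5 of the 10 genes, was among the lowest for Klf2. The groups overlapped, and the log2 fold change of -0.45 (SE 0.26) was -0.21 without WT replicate 2 and -0.71 without WT replicate 3.

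Of 14 other KLF genes 10 were tested, and 10 of these 10 were fitted lower, against 54.8% of all genes tested, at a median of -0.17 and with log2 fold changes from -0.44 to -0.07. At an unadjusted p under 0.05 there was 1, Klf3, a repressor gene of the family, at 13.1 ± 2.73 CPM (SD, n = 3) in WT mice against 9.65 ± 0.690 (SD, n = 3) in LSD1-mKO mice, with a log2 fold change of -0.44 and an adjusted p of 0.729 from edgeR. Without WT replicate 3 the number fitted lower was 8 and the median -0.06. The 1 gene at an unadjusted p under 0.05 became 3 without WT replicate 2 and 0 without WT replicate 3, LSD1-mKO replicate 2 or LSD1-mKO replicate 3. Klf9 and Klf15, which glucocorticoids induce in muscle, are the most abundant by CPM. Klf9 had 286 CPM in WT and 272 in LSD1-mKO, and Klf15 had 123 and 93.7, with groups that overlapped for both.

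Genes that KLF2 and KLF4 are known to control in endothelium were fitted lower in 8 of 8 tested, against 54.8% of all genes, with a median of -0.16. The endothelial markers had the same median of -0.16, with 9 of 12 fitted lower. Icam1, an adhesion molecule gene, had an unadjusted p under 0.05, with 8.17 to 10.8 CPM in WT, 4.99 to 7.40 in LSD1-mKO, a difference of -0.64 on the log2 scale (SE 0.20) and an adjusted p of 0.631 from edgeR. Nos3, the endothelial nitric oxide synthase gene, had -0.21 (SE 0.15), Vcam1 -0.33 (SE 0.29) and S1pr1, the most abundant, -0.09 (SE 0.11).

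Btg2 encodes an antiproliferative adaptor of the deadenylase that shortens mRNA tails, and it had the lowest share of the WT level among the 10. It lies on chromosome 1 from 134075170 to 134079120. The WT mice had 132.1, 87.0 and 226.2 CPM, and the LSD1-mKO mice 56.0, 54.1 and 63.2. The WT values spread 2.60-fold and the LSD1-mKO values 1.17-fold, and no LSD1-mKO mouse reached the lowest WT mouse. The LSD1-mKO mean of 57.8 ± 4.83 CPM (SD, n = 3) was 38.9% of the WT mean of 148.4 ± 71.0 (SD, n = 3). Its log2 fold change was -1.36 (SE 0.30), and -0.92 without WT replicate 3.

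Within the BTG and TOB family the opposite sign was seen for Btg3. Its level was 5.67, 5.31 and 7.73 CPM in WT and 13.6, 9.12 and 11.1 in LSD1-mKO, so that the LSD1-mKO values lay wholly above the WT values, as for 6.63% of all genes tested. The difference was 0.85 on the log2 scale (SE 0.21), with an unadjusted p of 0.00355 and an adjusted p of 0.506 from edgeR. Tob1, Tob2 and Btg1 had -0.26, -0.23 and -0.11. The difference between Btg2 and Btg3 was not tested.

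Trib1 encodes a pseudokinase that brings targets such as C/EBPα to a ubiquitin ligase. It lies on chromosome 15 from 59648350 to 59657099 and had 63.3, 64 and 76.0 CPM in WT and 46.2, 53.0 and 46.8 in LSD1-mKO. The groups did not overlap, and the log2 fold change was -0.48 (SE 0.10), with a range of -0.53 to -0.39 when 1 mouse was left out. Its relatives Trib2 and Trib3 had -0.29 and 0.02, both with overlapping groups.

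Dusp1 encodes MKP-1, a phosphatase that switches off p38, JNK and ERK MAP kinases, and lies on chromosome 17 from 26505590 to 26562128. It measured 137.3, 81.4 and 96.4 CPM in WT and 95.2, 54.9 and 79.3 in LSD1-mKO. The ranges overlapped, with LSD1-mKO replicate 1 close to WT replicate 3. For Dusp1 the log2 fold change of -0.46 (SE 0.23) was -0.22 without WT replicate 1 and -0.65 without LSD1-mKO replicate 1. In the annotation, exons of Dusp1 overlap those of Ergic1 on the opposite strand, and the sources used here do not state whether the counting used the strand, so part of its counts is uncertain. Of 6 other tested MAP kinase phosphatase genes 3 were fitted lower and 3 higher, between -0.29 for Dusp16 and 0.33 for Dusp10, and 0 had an unadjusted p under 0.05.

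Ier2 encodes a small nuclear protein of growth factor responses and lies on chromosome 8 from 84661331 to 84662852. It was low and its groups overlapped, with 9.64, 12.4 and 13.4 CPM in WT and 10.7, 11.3 and 8.75 in LSD1-mKO, from 80 to 156 counts a library. The log2 fold change of -0.21 (SE 0.17) was -0.11 without WT replicate 3 and -0.33 without WT replicate 1. Among its relatives, Ier5 had -0.35 (SE 0.15, edgeR adjusted p = 0.766), Ier3 -0.50 (SE 0.33) and Ier5l 0.20 (SE 0.24).

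**Figure D2:**
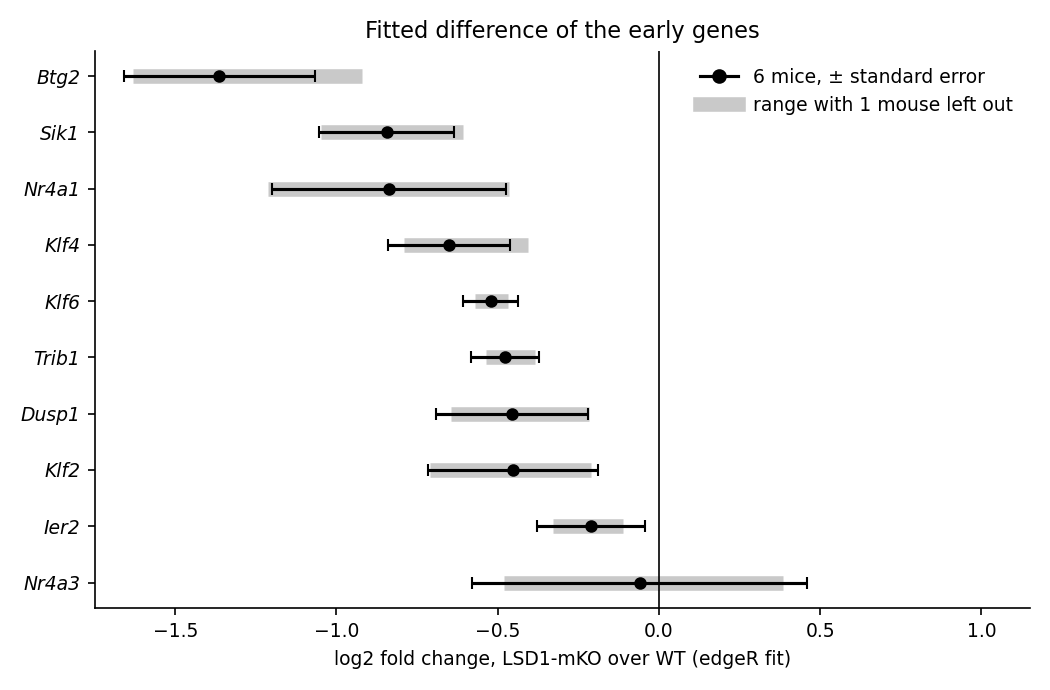
Fitted log2 fold change of each early gene, LSD1-mKO over WT, with a point and a bar of 1 standard error (SE) from the edgeR fit over 6 mice and a grey band for the range of the 6 fits without 1 of the mice. Btg2 lies farthest from 0, at -1.36, Klf6 and Trib1 have the narrowest bands, and only the band of Nr4a3 crosses 0.

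The level of each gene, which the choice of the genes did not use, was compared per length as transcripts per 1000000 (TPM). Over the 6 mice Dusp1 had the highest mean, with 100.3 ± 26.3 TPM (SD over 6 mice of both genotypes), followed by Btg2 with 83.2 ± 54.6, Klf2 with 70.7 ± 24.9, Nr4a1 with 62.6 ± 31.9 and Klf6 with 50.9 ± 10.5. Klf4, Sik1 and Trib1 lay close together at 33.5 ± 9.81, 32.5 ± 12.9 and 29.8 ± 6.41 TPM, Ier2 was at 16.1 ± 3.07 and Nr4a3 at 1.08 ± 0.491. By these means Dusp1 was above 89.7% of the genes tested and Nr4a3 above 5.38%. The order of the group means was not the same in both genotypes. Nothing is read from this difference, because the genes were chosen on the contrast of the genotypes. In WT, Btg2 came first, with 119.9 ± 58.2 TPM (SD, n = 3) beside 115.8 ± 22.6 for Dusp1, and Sik1 (41.7) stood just above Klf4 (40.9). Both places rest on WT replicate 3, with 185.8 TPM for Btg2 against 109.2 for Dusp1, and 55.1 for Sik1 against 37.0 for Klf4. In WT replicates 1 and 2, Dusp1 was above Btg2 and Klf4 above Sik1. In LSD1-mKO, Dusp1 was first with 84.8 ± 22.2 TPM (SD, n = 3), Klf2 followed with 59.3 ± 12.5, Btg2 was at 46.5 ± 4.02, and Sik1 (23.2) stood below Trib1 (24.8).

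For neighbours in the order over 6 mice, log2(TPM + 0.1) was compared within each mouse by an exact sign-flip permutation test, 2-sided, over 9 pairs. Klf6 was above Klf4 by 0.63 ± 0.25 (SD, log2) in 6 of 6 mice, Trib1 above Ier2 by 0.88 ± 0.21 in 6 of 6, and Ier2 above Nr4a3 by 3.88 ± 0.85 in 6 of 6. Each had an exact p of 0.03125, the smallest that 6 mice allow, and an adjusted exact p of 0.09375, so 0 of the 9 passed after adjustment. At this smallest p, a pair passes only if most of the 9 pairs reach it, so the adjusted test could not resolve single pairs. Without adjustment 3 passed. The other 6 pairs of neighbours did not differ beyond their spread, with adjusted exact p from 0.352 to 0.906. When the mean length of a gene's coding transcripts replaced the longest, 7 of the 10 genes took another place, with Nr4a1 second and Klf4 before Klf6.

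**Figure D3:**
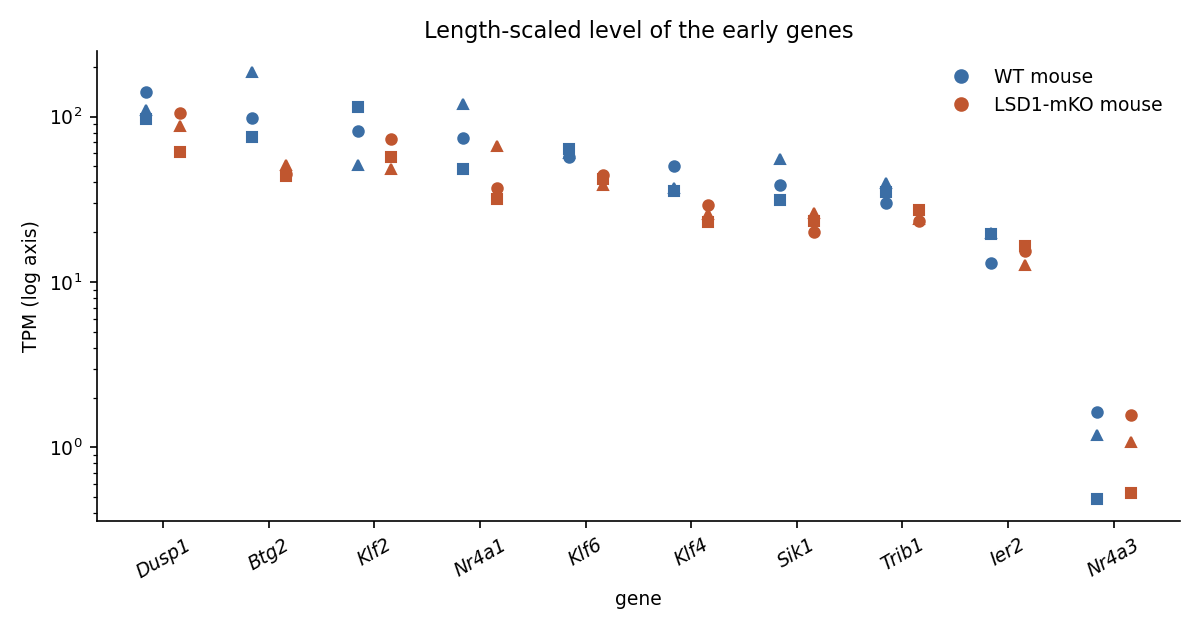
TPM of the 10 early genes on a log axis, ordered by the mean over the 6 mice, with 1 point per mouse, blue for WT and red for LSD1-mKO, and the marker shape for the replicate number. Dusp1 is the highest at 100.3 TPM on average and Nr4a3 the lowest at 1.08, with a wide gap below Ier2 at 16.1.

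Mice of the same genotype were also compared with each other. The SD of log2 CPM around the genotype means had a median of 0.37 over the 10 genes, against 0.17 over all genes tested, and was above that median for 8 of the 10. The SD of Nr4a3 exceeded that of 98.6% of the genes tested, the SD of Nr4a1 95.6% and that of Btg2 91.4%, whereas for Trib1 this share was 32.3% and for Klf6 9.82%. These ranks do not take the level of a gene into account. Nr4a3 held only 13 to 55 counts a library, so counting error adds to its SD. The highest of the 6 mice was a WT mouse for all 10 genes, namely WT replicate 3 for 5, WT replicate 1 for 4 and WT replicate 2 for Klf2. The lowest was an LSD1-mKO mouse for 9 of the 10, all but Nr4a3. Nothing is read from the genotype of these mice, because the genes were chosen on this contrast. WT replicate 2 was the lowest WT mouse for 7 genes, namely Nr4a1, Nr4a3, Sik1, Btg2, Klf4, Klf6 and Dusp1.

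With the genotype means removed, some of the genes deviated together, and they are described here as sets that were not tested. Sik1 and Btg2 had r = 0.94, Nr4a1 and Sik1 r = 0.88, and Nr4a1 and Btg2 r = 0.86, as a description over 6 mice. For these 3 genes WT replicate 3 was above WT replicate 1, which was above WT replicate 2, and LSD1-mKO replicate 3 was the highest of its group. A second set was Nr4a3, Klf4 and Dusp1, with r = 0.94 for Nr4a3 and Dusp1, 0.92 for Klf4 and Dusp1 and 0.86 for Nr4a3 and Klf4, and for them replicate 1 was the highest and replicate 2 the lowest mouse of both genotypes. Klf2 ran against the first set, with r = -0.93 to Sik1, -0.90 to Btg2 and -0.83 to Nr4a1. Of the 45 pairs of genes 27 had r above 0. The points of each pair share libraries and their scaling, and after removal of the means only 4 degrees of freedom remain.

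**Figure D4:**
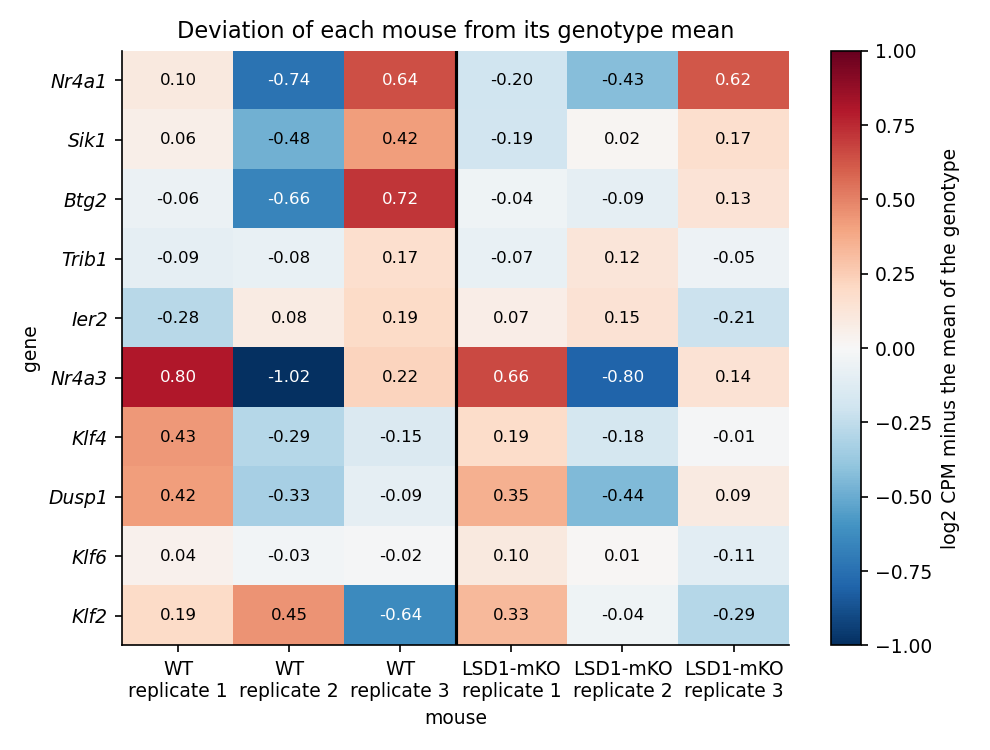
Deviation of log2 CPM from the genotype mean for each early gene (rows) and mouse (columns), in color from below to above the mean. Nr4a1, Sik1 and Btg2 are highest in WT replicate 3 and LSD1-mKO replicate 3, Nr4a3, Klf4 and Dusp1 are highest in replicate 1 of both genotypes, and Klf2 is lowest in replicate 3 of both.

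The promoters of these genes are shown because some of the genes deviated together and because CREB is a known regulator of several of them. RefSeq (GRCm38.p6) promoters, from 250 bases before to 50 after the start site, were matched for 7 of the 10 genes, and the missing entries are Sik1, Trib1 and Ier2. The sequences below give the bases upstream of the start site that lie outside annotated exons, read 5′ to 3′ along the gene. Capitals mark the full CRE, TGACGTCA, and its core TGACG, which reads CGTCA where it lies on the other strand.
Nr4a1 (chr15:101266596-101266845, plus strand): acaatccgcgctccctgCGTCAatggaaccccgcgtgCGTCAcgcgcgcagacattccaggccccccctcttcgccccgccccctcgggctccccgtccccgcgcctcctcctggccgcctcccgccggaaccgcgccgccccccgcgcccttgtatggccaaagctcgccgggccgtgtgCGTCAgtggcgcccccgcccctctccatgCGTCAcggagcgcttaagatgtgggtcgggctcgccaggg
Nr4a3 (chr4:48045055-48045152, plus strand): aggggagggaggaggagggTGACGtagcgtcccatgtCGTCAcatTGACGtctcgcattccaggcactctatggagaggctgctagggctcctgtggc
Btg2 (chr1:134079156-134079405, minus strand): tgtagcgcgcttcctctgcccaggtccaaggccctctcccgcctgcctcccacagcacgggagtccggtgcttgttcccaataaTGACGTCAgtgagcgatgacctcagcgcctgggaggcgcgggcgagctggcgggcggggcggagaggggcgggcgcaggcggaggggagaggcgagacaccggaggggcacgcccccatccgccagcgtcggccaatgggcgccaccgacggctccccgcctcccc
Dusp1 (chr17:26508520-26508722, minus strand): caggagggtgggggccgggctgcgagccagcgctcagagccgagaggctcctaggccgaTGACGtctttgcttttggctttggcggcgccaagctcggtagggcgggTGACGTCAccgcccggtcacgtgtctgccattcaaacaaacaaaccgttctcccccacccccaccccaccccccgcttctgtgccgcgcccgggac
Klf6 (chr13:5861239-5861481, plus strand): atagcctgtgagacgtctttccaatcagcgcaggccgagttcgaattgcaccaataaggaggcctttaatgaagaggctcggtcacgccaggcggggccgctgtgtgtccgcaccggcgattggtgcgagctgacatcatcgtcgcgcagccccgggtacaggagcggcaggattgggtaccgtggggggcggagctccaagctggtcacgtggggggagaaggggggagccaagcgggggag

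Btg2 and Dusp1 hold the full CRE, at -166 to -159 and at -143 to -136 from the start site, 2 of 7 genes, as against 1.79% of all 32851 promoters of the same length. These are genes of different sets by their deviations. The core TGACG, on either strand, was found in 6 of 7 genes and 20.8% of all promoters. A full CRE always contains this core on both strands. Nr4a1 and Nr4a3 hold the core 4 times each in the window searched (the last of Nr4a3 lies beyond the stretch shown), Dusp1 once more beside its full CRE, and Klf2 and Klf4 once each. Klf6, the steadiest gene, is shown as the promoter without a match.

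Other motifs were searched on both strands in the same windows. The GC box GGGCGG was in 7 of 7 and in 35.7% of all promoters, the E-box CACGTG in 3 (Dusp1, Klf4 and Klf6) and in 7.15%, and CCAAT in 2 (Btg2 and Klf6) and in 37.4%. The CArG box of the serum response factor (1.63% of all promoters), the TATA box TATAAA (13.6%), the AP-1 site TGANTCA (7.81%) and the NR4A site AAAGGTCA (1.51%) were in 0 of 7. Only exact matches were counted, so a site that differs even slightly from the searched letters is missed. A match or its absence describes the sequence only.

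Further genes that the same stimuli induce were counted as 21 other immediate early genes. Of these, 20 were fitted lower, against 54.8% of all genes tested, at a median of -0.33 on the log2 scale, and 6 had a lower level at an unadjusted p under 0.05, against 2.88% of all genes tested. None passed at an adjusted p with edgeR, DESeq2 or limma voom, and the list was drawn up with earlier results of these data known, so its direction is not independent evidence. Fosl2, an AP-1 subunit gene, had 27.7, 28.6 and 32.3 CPM in WT and 22.3, 18.8 and 16.6 in LSD1-mKO, or -0.62 on the log2 scale (SE 0.13, edgeR adjusted p = 0.340). Fos had 28.8, 6.03 and 24.6 CPM in WT and 6.07, 2.68 and 6.61 in LSD1-mKO, with WT replicate 2 low, as for Nr4a1 and Btg2. This is a difference of -1.95 on the log2 scale (SE 0.55, edgeR adjusted p = 0.578). Jund had -0.33 (SE 0.12), and Ctgf, the most abundant of the list, -0.48 (SE 0.20). The count of 6 was 2 without WT replicate 3 or without LSD1-mKO replicate 3.

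Factors that act upstream of such genes lay on both sides. Of 13 tested genes for SRF, MEF2 and their partners, 6 were fitted lower and 7 higher, with a median of 0.03. Hdac4, a repressor of MEF2, had -0.38 (SE 0.13, edgeR adjusted p = 0.701), with LSD1-mKO values of 17.2 to 24.5 CPM below WT values of 25.4 to 28.0. Mef2c, the most abundant, had 0.14 (SE 0.11). In all, the family and pathway lists held 118 tested genes beside the 10, of which 15 were lower and 2 higher at an unadjusted p under 0.05, against 2.88% lower and 3.52% higher over all genes tested. With an adjusted p, 0 passed by edgeR or limma voom and 1, Arntl, by DESeq2, which called 0.334% of the genes to which it gave an adjusted p. The lists were drawn up with earlier results of these data known and hold relatives of the chosen genes. Their counts are therefore not independent evidence.

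**Figure D5:**
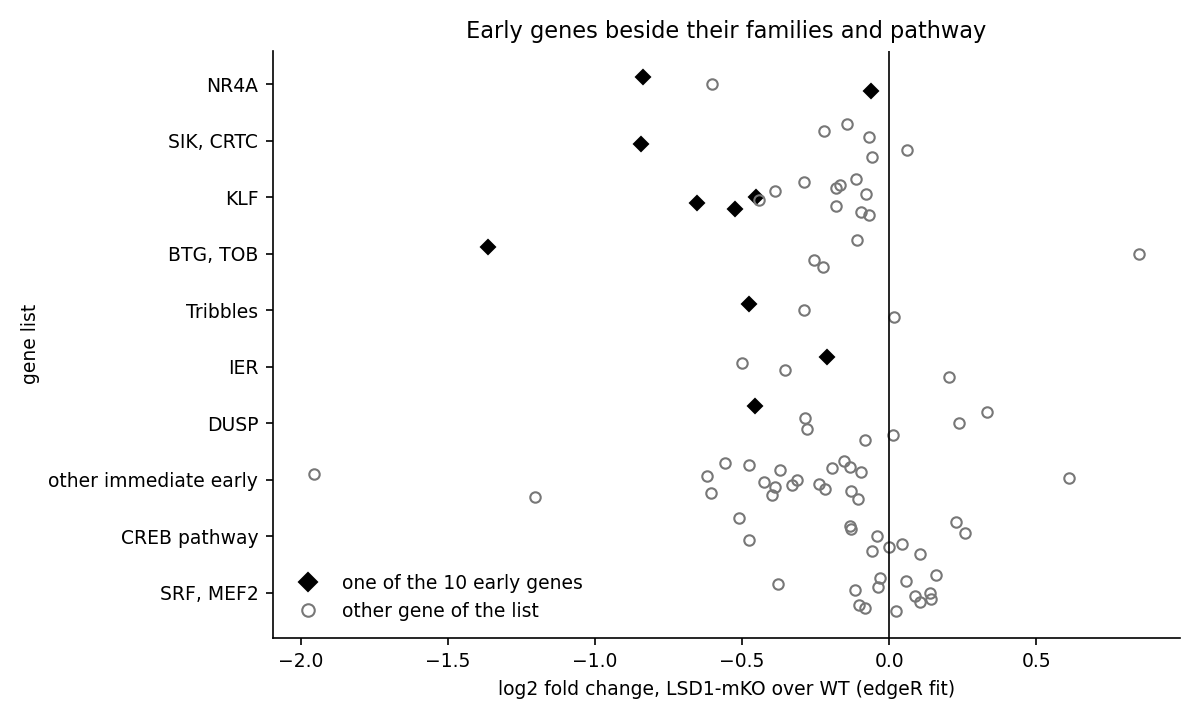
Log2 fold change, LSD1-mKO over WT, of the tested genes in 10 of the family and pathway lists, with 1 point per gene and the early genes marked apart from their relatives. The other immediate early genes lie mostly below 0, with a median of -0.33, while the SRF and MEF2 genes lie around 0.

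The mice also differed in other respects, which are given here beside the values above. Clock genes, whose levels follow the hour of the day, were 17 tested. Of these, 3 were lower and 1 higher at an unadjusted p under 0.05, against 2.88% and 3.52% of all genes tested. This list too was drawn up with earlier results of these data known. Arntl, which encodes the activator BMAL1, had 2.77, 4.41 and 3.38 CPM in WT and 9.17, 7.17 and 8.38 in LSD1-mKO, a difference of 1.21 on the log2 scale (SE 0.21, edgeR adjusted p = 0.269). Nfil3, a repressor of the clock output, had 76.8, 22.3 and 56.5 CPM in WT and 16.9, 23.0 and 25.4 in LSD1-mKO, with WT replicate 2 again the lowest WT mouse. Tef, the most abundant, had -0.13 (SE 0.10). The part of the clock or of the hour of collection in the levels of the early genes was not tested.

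Markers of other cells of the muscle varied among the mice. The summed level of 12 endothelial markers was 778 to 1056 CPM in WT and 778 to 933 in LSD1-mKO. It was highest in WT replicate 2, which was also the highest mouse for Klf2. The other WT mice had the reverse order, with a sum of 778 and 73.9 CPM of Klf2 in replicate 1, and 925 and 41.7 in replicate 3. Of the 12, 9 were fitted lower, and Vwf had 67.4 to 84.5 CPM in WT and 48.6 to 66.5 in LSD1-mKO, without overlap. Cdh5 and Pecam1, the most abundant, had -0.17 and -0.15. Immune markers summed to 149 to 437 CPM in WT and 144 to 276 in LSD1-mKO, and 11 of 11 tested were fitted lower, 2 of them at an unadjusted p under 0.05, against 54.8% and 2.88% of all genes tested. Lyz2 and Csf1r, the most abundant, had -0.57 and -0.62. Cd3e of T cells was at 0 to 0.373 CPM and was not tested. Fibroblast markers summed to 1439 to 4577 CPM in WT and 1479 to 2958 in LSD1-mKO, with 8 of 8 fitted lower, against 54.8% of all genes tested, and 0 at an unadjusted p under 0.05, and with -0.95 for Col1a2 and -0.04 for Dcn. WT replicate 3, the highest mouse for 5 early genes, had the highest fibroblast sum of the 6 mice, and WT replicate 1, the highest for 4, had the lowest immune and fibroblast sums of the WT mice. Of the 9 smooth muscle and pericyte markers 5 were fitted lower and 4 higher, with 0 at an unadjusted p under 0.05, and Rgs5 and Myh11 had 0.05 and 0.01. The adipocyte, Schwann cell, slow fiber and fast fiber markers also had 0 at that level. The red blood cell markers had 1 of 5 higher and the satellite cell markers 1 of 5 lower, against 3.52% and 2.88% of all genes tested. The part of these cells in the early gene values was not tested.

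The 6-mouse pattern of the 10 genes was summarised as the mean of their z-scores, which was 0.81, 0.14 and 0.83 in WT and -0.34, -0.80 and -0.63 in LSD1-mKO. Among 10202 other genes with a mean of at least 5 CPM, the 5 with the highest correlation to it across the 6 mice were Rhot1 (r = 0.997), Mtr (0.996), Pms2 (0.979), Arf2 (0.976) and Ino80 (0.975), and 18 genes had r above 0.95. Rhot1, a gene of mitochondrial transport, spanned only 60.1 to 67.6 CPM. Mtr, the methionine synthase gene, had 17.8, 15.6 and 18.7 CPM in WT and 13.8, 12.1 and 12.9 in LSD1-mKO. These correlations rest on 6 libraries and on a mean that differs between the genotypes by the choice of the genes.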

How the data were processed

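RNA-seq libraries were single-end, from poly(A) RNA. Reads were aligned by the authors with STAR (genome mm10), and the deposited values are unnormalized estimated counts for each gene. From 8.33% to 9.94% of the values of a library are not whole numbers. The counting tool and annotation are not given in the sources used here. The authors' second table holds their DESeq2 comparison (mean, log2 ratio, error and p-values per gene) and was not used.

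Estimated counts were rounded and fitted in edgeR 4.0.16 (R 4.3.3; TMM, filterByExpr, quasi-likelihood test, Benjamini-Hochberg over 12828 genes, threshold 0.05, all 6 mice, no covariate). DESeq2 1.42.0 and limma 3.58.1 were alternatives, as were other scalings and filters, the replicate number as a block and each mouse left out. The scripts were tested on simulated data. CPM are TMM-scaled. TPM used the longest coding transcript of GENCODE vM21, matched by current symbol for 23350 genes and by an older one for 668, with 393 unmatched. The chi-square per gene between any 2 libraries was at least 9.88; no pair was alike within sampling noise.

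The 10 genes and all lists were chosen with earlier results of these data known. The genes named are the 10, Kdm1a, relatives of the 10, up to 3 genes of lowest p and the most abundant gene of each pathway list, the 2 most abundant genes of a marker list and any without overlap, and the 5 genes most alike in pattern. Markers of immune, fibroblast and other cells are given as sums. Slc2a4, Ppargc1a, Cd3e and the myosin genes lie outside this rule and were named after their values were seen. A result of the CREB pathway list is not reported here.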

Additional observations from a re-analysis of the deposited data

How the results depend on the processing

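Over all genes, edgeR called 1 gene as higher and 1, Kdm1a, as lower in LSD1-mKO (adjusted p, threshold 0.05). The counts were 33 higher and 9 lower with DESeq2, 8 and 3 without the filter on low counts, and 2 higher with limma voom. With 1 mouse left out, 1 to 2 genes were higher and 0 to 1 lower. A replicate block in the fit left 0 lower genes. Where 0 genes were lower, even the deleted gene Kdm1a was not called. Over all genes tested, the deviations of same-numbered mice correlated at -0.352, -0.107 and -0.150, so the numbers were not taken to pair the mice, although several of the 10 genes, among them Nr4a3, Klf4, Dusp1 and Klf2, were highest or lowest in the same number in both genotypes. Of 140 fitted differences of the 10 genes under 14 alternatives, 137 kept their direction. The 3 that changed direction were all of Nr4a3: 0.02 with limma voom, 0.39 without WT replicate 1 and 0.28 without LSD1-mKO replicate 2. For the order of levels, 0 pairs passed after adjustment under every alternative, and with 5 mice the exact test cannot go below 0.0625. The alternatives for the other immediate early genes and KLF genes were chosen after seeing the data. Depth limits Nr4a3 most, with 13 to 55 counts a library. The causes of these changes were not tested.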
